A study of Homo sapiens with 6 samples.

Results

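Receptor tyrosine kinases outside the HER family that have been proposed as bypass routes around HER2 blockade were measured by RNA sequencing in SKBR3, a HER2-positive mammary epithelial cancer line. The 10 genes were taken by symbol from the 60612 gene identifiers of the count files: MET, MST1R, AXL, FGFR1, FGFR2, FGFR3, FGFR4, RET, DDR1 and PTK7. The tested cells were SKBR3 kept under rising trastuzumab, an antibody against HER2, for 30 weeks (labelled SKBR3_HR, here trastuzumab cells), with 3 libraries. They were set against untreated SKBR3 (here parental cells), also with 3 libraries. Both are the same line. Below, "under trastuzumab" means in the trastuzumab cells, whether or not drug was present at harvest. Rose and fell mean higher and lower there than in parental cells. A response to the drug, selection of cells and time in culture cannot be told apart in this comparison. The labels give neither the final dose, nor whether drug was present at harvest, nor whether replicates were separate cultures, so the p-values measure only the spread between libraries, which may be technical.

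A receptor tyrosine kinase spans the cell membrane, pairs up when it binds its ligand and phosphorylates itself and its adaptors, which feed the RAS-ERK and PI3K-AKT pathways. HER2 uses the same pathways, so another active receptor can in principle keep them running when HER2 is blocked. MET binds hepatocyte growth factor (HGF) and MST1R, also called RON, binds macrophage-stimulating protein (MST1). AXL binds GAS6, the FGFRs bind fibroblast growth factors, and RET binds GDNF family ligands through GFRA coreceptors. DDR1 is a collagen receptor, and PTK7 is a Wnt coreceptor whose kinase domain is catalytically defective. RNA levels do not measure receptor protein or its phosphorylation.

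Depth was 71.0 to 82.9 M counts per library, and a count of 0 allowed at most 0.0372 to 0.0428 CPM (3 counts, counting error only). CPM is the count per M of the TMM-scaled depth. All 6 luminal epithelial markers were present, summing to 20834 to 22406 CPM in trastuzumab and 18075 to 19819.9 CPM in parental libraries. The largest part was ERBB2, the gene of the drug's target, with a mean of 11045 CPM in trastuzumab and 7922 CPM in parental libraries. KRT19 and GATA3 also had higher means in trastuzumab libraries, and KRT8, KRT18 and EPCAM had lower ones. Trastuzumab replicates 2 and 3 stood apart in basal keratins. KRT5 had 0.614, 9.07 and 8.26 CPM and KRT14 0.0571, 7.53 and 7.72 CPM in trastuzumab replicates 1 to 3, against at most 1.27 and 0.234 CPM in parental libraries. The 6 basal markers summed to 5.27 to 26.2 CPM in trastuzumab and 7.33 to 8.45 CPM in parental libraries. Fibroblast markers summed to 6.24 to 11.2 CPM in trastuzumab and 9.42 to 19.5 CPM in parental libraries, with 5 of 7 reaching 1 CPM and LUM and PDGFRA below it. The endothelial sum was 79 to 86 CPM in trastuzumab and 28.5 to 31.7 CPM in parental libraries and lay mostly in CDH5, with PECAM1, KDR and TEK below 1 CPM. The leukocyte sum was 42.7 to 48.6 CPM in trastuzumab and 14.8 to 17.3 CPM in parental libraries and lay mostly in CD68, with PTPRC, CD3E and CD14 below 1 CPM. The part of these markers in the results was not tested. In bulk RNA, fewer cells of a type and less RNA per cell cannot be told apart.

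Between trastuzumab and parental cells the receptors did not move together. PTK7 was 2.63-fold and DDR1 1.33-fold higher, while MET and all 4 FGF receptors were 1.3-fold to 1.7-fold lower. MST1R and AXL did not pass the test, and RET was too low to be tested. Thus 2 of the 9 tested members rose and 5 fell at an adjusted p below 0.05. Over all 17854 genes tested, 49.3% were called, 23.9% higher and 25.4% lower. The median log2 fold change was -0.38 over the 9 members and -0.0057 over all genes. With trends on GC content and exonic length removed from each library, it was -0.19 over the members and -0.014 over all genes. With GC content alone removed, it was -0.22 over the members and -0.022 over all genes.

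**Figure D1:**
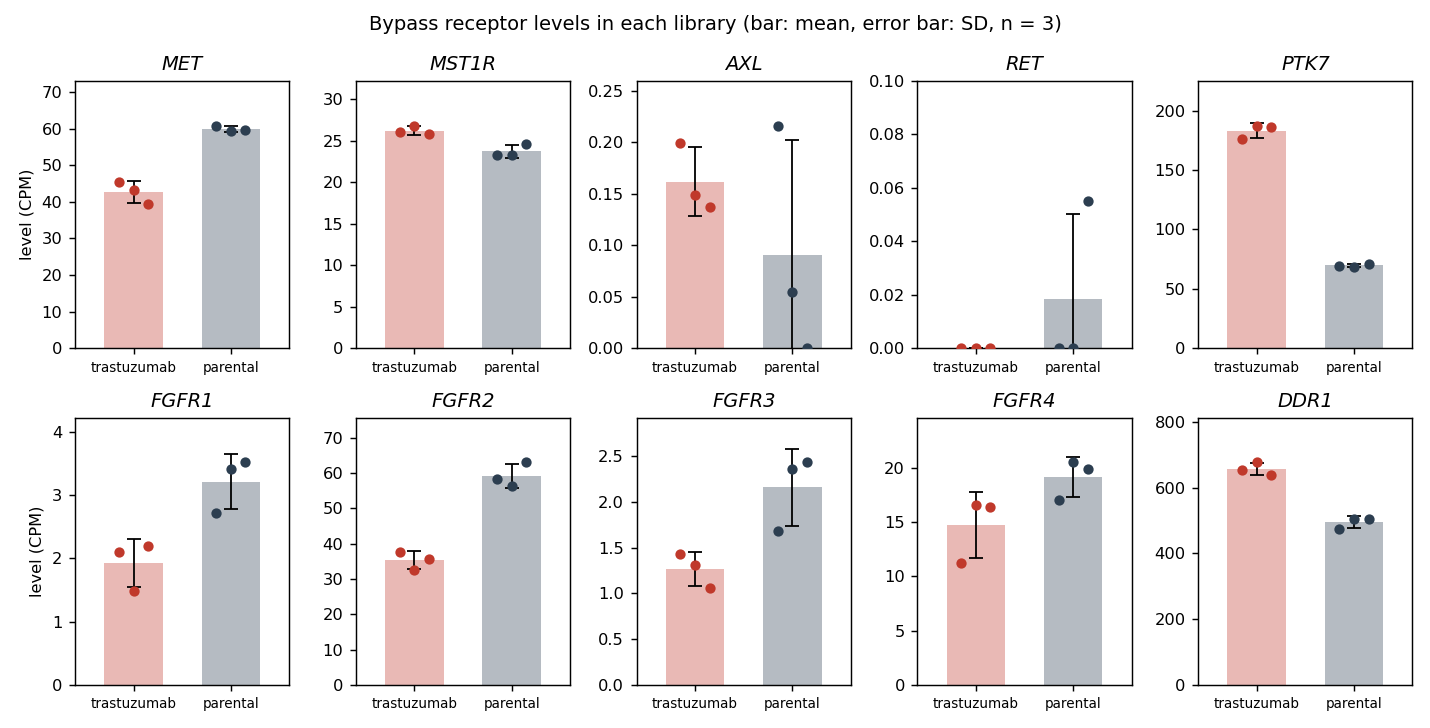
Level of each bypass receptor in CPM (vertical axes, each from 0) in the 3 trastuzumab libraries (left of each panel) and the 3 parental libraries (right). Points are libraries, bars are means and error bars are SD. PTK7 lies at 176 to 188 CPM in trastuzumab and 68.5 to 71.1 CPM in parental libraries, and RET has counts in 1 library only.

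The promoters of PTK7, the member with the largest called change, and of FGFR2 and MET, the most abundant members that fell, are shown to set a riser beside fallers (RefSeq, GRCh38.p14, 5′ to 3′ on the gene's strand, 250 bases before the most upstream listed start). Capitals mark matches, on either strand, to any of 6 motifs: the GC box (GGGCGG), ETS (CCGGAA), AP-1 (TGANTCA), the E-box (CACGTG), the TATA box (TATAAA) and TEAD (GGAATG). Every capital run in these windows is a GC box.
PTK7 (chr6:43076064-43076313, plus strand): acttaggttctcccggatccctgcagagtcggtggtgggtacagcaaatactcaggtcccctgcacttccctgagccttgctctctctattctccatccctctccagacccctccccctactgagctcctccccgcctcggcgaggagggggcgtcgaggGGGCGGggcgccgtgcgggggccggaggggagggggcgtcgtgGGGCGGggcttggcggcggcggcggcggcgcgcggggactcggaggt
FGFR2 (chr10:121598445-121598694, minus strand): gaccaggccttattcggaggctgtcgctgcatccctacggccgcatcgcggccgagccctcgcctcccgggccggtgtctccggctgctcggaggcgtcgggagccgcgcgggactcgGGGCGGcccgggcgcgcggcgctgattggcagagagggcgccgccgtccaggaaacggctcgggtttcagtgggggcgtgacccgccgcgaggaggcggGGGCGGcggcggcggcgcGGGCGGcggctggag
MET (chr7:116671946-116672195, plus strand): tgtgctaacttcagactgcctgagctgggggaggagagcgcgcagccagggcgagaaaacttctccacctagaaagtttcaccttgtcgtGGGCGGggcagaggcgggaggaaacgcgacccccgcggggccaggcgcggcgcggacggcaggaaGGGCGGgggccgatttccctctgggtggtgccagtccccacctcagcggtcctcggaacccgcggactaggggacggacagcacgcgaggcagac

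The window of the riser looked like those of the fallers. PTK7 held 2 GC boxes and 24 CpG sites at 71.6% GC. FGFR2 held 3 GC boxes and 42 CpG sites at 78.4% GC, and MET held 2 GC boxes and 24 CpG sites at 68.4% GC. Over all 35116 windows of the same length the medians were 58% GC and 11 CpG sites, and 42.6% held a GC box. The table had a start for 9 of the 10 members, and 8 of those held a GC box at the most upstream one. The figures over all windows count every listed start of a gene, while members were scored at the most upstream start only. Shares of members and of all windows, for any motif, are therefore not like for like. At other listed starts of members, some windows held a GC box and others did not. DDR1, with 8 listed starts, held none at its most upstream start. The other motifs were found in 6.34% (E-box) to 14.5% (ETS) of all windows, and among the most upstream windows of the members only that of MST1R held one (ETS). A match describes these letters and is not a binding site, and the counts do not say which start was used.

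PTK7 takes part in planar cell polarity signalling with Wnt ligands and Frizzled receptors. Its level was 176, 188 and 186 CPM under trastuzumab, against 69.4, 68.5 and 71.1 CPM in parental cells (replicates 1 to 3 in each group). The groups did not overlap, and the spread within each was small beside the gap. The means were 183 ± 6.36 CPM under trastuzumab and 69.7 ± 1.34 CPM in parental cells (SD, n = 3 each). The log2 fold change was 1.39 ± 0.048 (SE, edgeR adjusted p = 4.00e-12), or 2.63-fold with a 95% interval of 2.45 to 2.82. It lay between 1.38 and 1.42 with any 1 library left out, and was 1.33 with trastuzumab replicates 2 and 3 left out together. PTK7 (ENSG00000112655) lies on hg38 chromosome 6 at 43076268 to 43161719 on the plus strand, and no other annotated gene overlaps it.

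DDR1 was the most abundant member in both groups. It is activated by fibrillar and basement membrane collagens and is widely expressed in epithelia. It had 652, 677 and 639 CPM under trastuzumab, against 475, 505 and 504 CPM in parental cells. Every trastuzumab library lay above every parental library, and the log2 fold change was 0.41 ± 0.043 (adjusted p = 7.38e-07). DDR1 (ENSG00000204580) lies on chromosome 6 at 30876421 to 30900156 on the plus strand and contains MIR4640, a microRNA gene with almost no counts.

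MET fell. This receptor is best known in resistance to inhibitors of EGFR in lung cancer. It had 45.3, 43.2 and 39.3 CPM under trastuzumab, against 60.9, 59.4 and 59.5 CPM in parental cells. The groups did not overlap, and the log2 fold change was -0.49 ± 0.065 (adjusted p = 8.98e-06). MST1R, its closest relative, had 26.1, 26.8 and 25.8 CPM under trastuzumab, against 23.3, 23.2 and 24.6 CPM in parental cells. Its libraries also separated, but the log2 fold change of 0.15 ± 0.073 did not pass (adjusted p = 0.114), and its 95% interval ran from 0.994-fold to 1.23-fold. In FPKM, the authors' values per length of gene and per M reads, the ratio of MET to MST1R was 1.26, 1.17 and 1.11 under trastuzumab, against 1.9, 1.86 and 1.76 in parental cells. The ratio was lower in every trastuzumab library, and no test was made of it. With GC content and length trends removed from each library, the log2 fold change was -0.16 for MET and -0.19 for MST1R, so these estimates give no lower ratio. MET (ENSG00000105976) lies on chromosome 7 at 116672390 to 116798386 on the plus strand. MST1R (ENSG00000164078) lies on chromosome 3 at 49887002 to 49903873 on the minus strand.

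All 4 FGF receptors fell. FGFR2, a receptor of mammary epithelium, had 37.8, 32.6 and 35.7 CPM under trastuzumab, against 58.4, 56.4 and 63.1 CPM in parental cells, a log2 fold change of -0.75 ± 0.071 (adjusted p = 2.63e-07). FGFR4, which with the coreceptor KLB is a receptor for FGF19, had 11.2, 16.6 and 16.4 CPM under trastuzumab, against 17.1, 20.5 and 19.9 CPM in parental cells. Trastuzumab replicate 1 was the low library there, and the highest trastuzumab library lay just below the lowest parental one. The log2 fold change of FGFR4 was -0.38 ± 0.14 (adjusted p = 0.0367), and -0.22 (adjusted p = 0.118) without that library. Its call was also lost without parental replicate 2 (adjusted p = 0.127) or 3 (0.126). With trastuzumab replicates 2 and 3 left out together it stood at -0.77. FGFR2 (ENSG00000066468) lies on chromosome 10 at 121478334 to 121598458 on the minus strand, and FGFR4 (ENSG00000160867) on chromosome 5 at 177086886 to 177098144 on the plus strand.

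FGFR1 and FGFR3 were scarce. FGFR1 had 2.1, 1.49 and 2.19 CPM under trastuzumab, against 2.72, 3.41 and 3.52 CPM in parental cells (log2 fold change -0.74 ± 0.22, adjusted p = 0.0114). FGFR3, best known from bladder cancer and bone growth, had 1.43, 1.31 and 1.06 CPM under trastuzumab, against 1.68, 2.36 and 2.43 CPM in parental cells (log2 fold change -0.77 ± 0.26, adjusted p = 0.022). Both separated by group, but they rested on 85 to 256 counts per library. FGFR1 lost its call without trastuzumab replicate 2 (-0.58, adjusted p = 0.0618). FGFR3 lost its call without trastuzumab replicate 2 (-0.79, adjusted p = 0.051) or 3 (-0.66, adjusted p = 0.0852) and without parental replicate 2 (-0.70, adjusted p = 0.0772) or 3 (-0.67, adjusted p = 0.0818). With trastuzumab replicates 2 and 3 left out together, FGFR1 stood at -0.62 and FGFR3 at -0.60, and neither passed (adjusted p = 0.16 and 0.274). These estimates kept their sign. FGFR1 shares 138 exonic bases with LETM2 on the other strand, and gene counts do not separate the splice forms that set which FGFs an FGF receptor binds.

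AXL and RET were at or near the detection limit. AXL, known from mesenchymal and drug-tolerant tumour cells, had 14, 12 and 11 counts in trastuzumab replicates 1 to 3, against 16, 4 and 0 counts in parental replicates 1 to 3. Summed over each group this was 0.16 CPM under trastuzumab (exact Poisson 95% interval 0.113 to 0.221) and 0.0908 CPM in parental cells (0.0554 to 0.14), intervals that cover counting error only. The groups overlapped, and the log2 fold change of 0.83 ± 1.1 (adjusted p = 0.566) had a 95% interval of -1.41 to 3.06. It ran from 0.25 to 2.50 with 1 library left out. No change of AXL was detectable with these low counts and their spread between libraries. RET had 0 counts in all 3 trastuzumab libraries, against 0, 0 and 4 counts in parental replicates 1 to 3. The trastuzumab libraries together allow at most 0.013 CPM (3 counts).

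Relatives of these receptors gave a mixed picture. TYRO3, which shares the ligand GAS6 with AXL, rose to 113 ± 3.91 CPM under trastuzumab, against 85 ± 3.82 CPM in parental cells (log2 fold change 0.42 ± 0.052, adjusted p = 4.61e-06), and stood at 0.15 with GC content trends alone removed. MERTK, the phagocyte receptor of the AXL family, had 0.349 ± 0.206 CPM under trastuzumab and 0.559 ± 0.0936 CPM in parental cells (adjusted p = 0.336). DDR2, the collagen receptor of mesenchymal cells, had 0.905 ± 0.569 CPM under trastuzumab and 1.2 ± 0.417 CPM in parental cells (adjusted p = 0.483).

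Of the 9 tested members, 8 had libraries that did not overlap between the groups, 3 higher (PTK7, DDR1 and MST1R) and 5 lower. Over all tested genes 57.5% did not overlap, 28.3% higher and 29.2% lower.

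Fold changes across the transcriptome went with base composition. Over 17649 tested genes with an annotation, Spearman's rho between change and transcript GC content was 0.50, and -0.22 between change and exonic length. These genes share the same 6 libraries. MET had the lowest GC content of the members at 43.9%, FGFR2 had 50.5% and the others 56.1 to 63.6%. A second fit with trends on GC content and length removed from each library therefore stands beside the first, and it also removes real changes that go with either. In that fit PTK7 stood at 1.19 ± 0.041 (adjusted p = 3.09e-12), FGFR2 at -0.71 ± 0.068 (4.18e-07) and DDR1 at 0.18 ± 0.035 (0.000759). FGFR1, FGFR3 and FGFR4 stood at -0.81, -1.13 and -0.75 (adjusted p = 0.0086, 0.00232 and 0.000124).

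MET, MST1R and DDR1 depended on the correction. MET stood at -0.16 ± 0.064 and lost its call (adjusted p = 0.0618), though it passed with GC content alone removed (-0.22, adjusted p = 0.0109). MST1R turned to -0.19 ± 0.067 and was called lower (adjusted p = 0.0347). With GC content alone removed, DDR1 stood at 0.020 and lost its call (adjusted p = 0.705). The corrected fit thus again called 2 members higher and 5 lower, with MST1R in the place of MET. With the replicate number added as a block, MST1R lost that call (-0.19, adjusted p = 0.0605), which left 4 lower. Of all genes the corrected fit without the block called 36.8%, 17.8% higher and 19.0% lower.

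**Figure D2:**
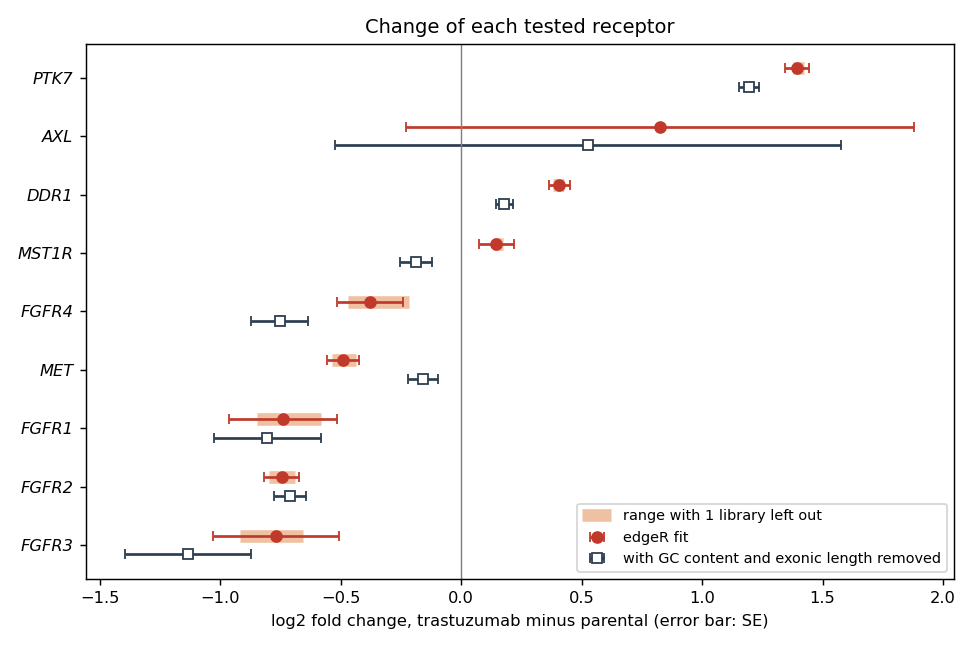
Log2 fold change of the 9 tested receptors, trastuzumab minus parental (horizontal axis; RET was not tested). Filled circles are the edgeR fit, open squares the fit with GC content and exonic length trends removed, error bars are SE, and pale bars span the estimates with 1 library left out (not drawn for AXL, whose estimates ran from 0.25 to 2.50). PTK7 at 1.39 and 1.19 and FGFR2 at -0.75 and -0.71 keep their direction in both fits, while MST1R lies at 0.15 in one and -0.19 in the other.

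Levels of different genes were compared in FPKM, which takes gene length into account. Under trastuzumab the order was DDR1 at 61.8 ± 1.77, PTK7 at 17.5 ± 0.568, MET at 5.06 ± 0.374, MST1R at 4.28 ± 0.0854, FGFR2 at 3.99 ± 0.307 and FGFR4 at 2.61 ± 0.532 FPKM (mean ± SD, n = 3). MST1R and FGFR2 lay within their spread of each other. In parental cells the order was DDR1 at 48.9 ± 1.5, MET at 7.46 ± 0.153, FGFR2 at 7.04 ± 0.339, PTK7 at 6.98 ± 0.0764, MST1R at 4.05 ± 0.0929 and FGFR4 at 3.57 ± 0.329 FPKM. FGFR2 and PTK7 did not differ beyond their spread there, and the libraries of MET (7.33 to 7.63 FPKM) and FGFR2 (6.73 to 7.4 FPKM) overlapped. FGFR3, FGFR1, AXL and RET followed in both groups, with FGFR3 at 0.223 FPKM under trastuzumab and 0.397 FPKM in parental cells.

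PTK7 also changed place among the 58 receptor tyrosine kinases listed. It ranked 4 by mean FPKM under trastuzumab, behind ERBB2, DDR1 and ERBB3, and 15 in parental cells. The parental rank is not exact, since TYRO3 (7.11 ± 0.243 FPKM) and FGFR2 (7.04 ± 0.339 FPKM) lay within their spread of PTK7. EGFR ranked 10 under trastuzumab (9.89 ± 0.309 FPKM) and 4 in parental cells (20.5 ± 0.182 FPKM). ERBB2 stood far above all of them, so PTK7 amounted to 1.84, 1.9 and 1.97% of ERBB2 in FPKM under trastuzumab, against 1.05, 0.965 and 1.01% in parental cells. For MET the same share was 0.591, 0.544 and 0.516% under trastuzumab, against 1.15, 1.04 and 1.05% in parental cells. ERBB2 itself rose to 919 ± 19.8 FPKM under trastuzumab, against 692 ± 25.4 FPKM in parental cells (log2 fold change 0.48, edgeR adjusted p = 4.06e-08). These shares therefore depend on the change of ERBB2 as well. They were not corrected for GC content or length, and MET stood at -0.16 and was not called in the corrected fit. The 10 members made up 41.9, 43.3 and 42% of the summed FPKM of the listed receptors other than ERBB2 under trastuzumab, against 35.4, 36.3 and 35.2% in parental cells. DDR1 alone held 65, 65 and 64% of the members' sum under trastuzumab, against 61.7, 62.9 and 61.9% in parental cells. The 4 FGF receptors summed to 6.65, 6.92 and 7.24 FPKM under trastuzumab, against 10.7, 11.2 and 11.7 FPKM in parental cells, and FGFR2 held the largest share in every library.

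**Figure D3:**
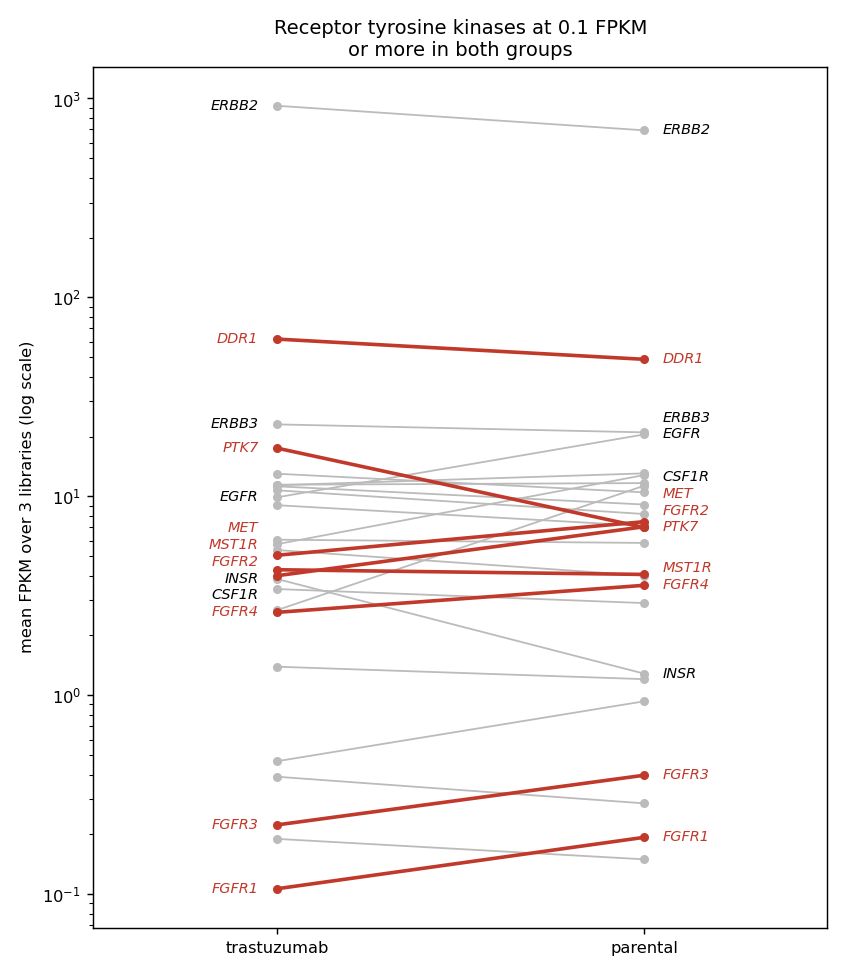
Mean FPKM over 3 libraries (log axis) of receptor tyrosine kinases with at least 0.1 FPKM in both groups, trastuzumab at left and parental at right. Red lines are the bypass receptors and grey lines other receptors. PTK7 stands at 17.5 FPKM at left and 6.98 at right, and ERBB2 lies above all others at 919 and 692 FPKM.

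Of the 48 other receptors listed, 25 were tested; 10 were called higher and 4 lower, with a median log2 fold change of 0.28. The corrected fit called 8 higher and 5 lower, with a median of 0.11, and the median was 0.068 with GC content alone removed. INSR, the insulin receptor, rose to 48.6 ± 3.42 CPM under trastuzumab, against 15.5 ± 1.31 CPM in parental cells (log2 fold change 1.65 ± 0.083, adjusted p = 2.48e-10). CSF1R, the macrophage colony-stimulating factor receptor, fell to 16.1 ± 0.923 CPM under trastuzumab, against 64.7 ± 10.5 CPM in parental cells (log2 fold change -2.01 ± 0.11, adjusted p = 8.36e-09). EPHB6, another kinase-defective receptor, fell to 35.7 ± 3.09 CPM under trastuzumab, against 75.7 ± 6.5 CPM in parental cells (log2 fold change -1.08 ± 0.076, adjusted p = 1.08e-08).

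Ligands of the bypass receptors were mostly scarce in the cells themselves. Of 43 listed ligands 18 could be tested; 6 were called higher and 4 lower, with a median of -0.027. The corrected fit called 4 higher and 4 lower. HGF reached 0.0499 CPM in its highest library and was not tested. MST1 had 1.83 ± 0.39 CPM under trastuzumab and 2.0 ± 0.787 CPM in parental cells (adjusted p = 0.769). FGF1, which binds all 4 FGF receptors, had 3.62, 3.9 and 2.97 CPM under trastuzumab, against 1.42, 0.57 and 0.674 CPM in parental cells. Its libraries did not overlap between the groups, and FGF1 was higher in the cells whose FGF receptors were lower (log2 fold change 1.98 ± 0.31, adjusted p = 6.06e-05).

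Some RET ligands were present without their receptor. GDF15, a stress cytokine that signals through GFRAL and RET, rose to 10.04 ± 0.216 CPM under trastuzumab, against 1.85 ± 0.227 CPM in parental cells (log2 fold change 2.44 ± 0.15, adjusted p = 2.61e-09). NRTN, a GDNF family member, had 2.18 ± 0.63 CPM under trastuzumab and 2.19 ± 0.285 CPM in parental cells (adjusted p = 0.978). PSPN, another GDNF family member, had 2.21 ± 0.32 CPM under trastuzumab and 1.54 ± 0.266 CPM in parental cells (adjusted p = 0.0947). GFRA1, GFRA4 and GFRAL, which present such ligands to RET, had 0 counts in all 6 libraries, and GFRA2 and GFRA3 reached 0.359 and 0.109 CPM in their highest libraries.

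Collagens, the ligands of DDR1, changed in both directions. COL4A1, a basement membrane chain, rose to 2.99 ± 0.617 CPM under trastuzumab, against 0.895 ± 0.266 CPM in parental cells (log2 fold change 1.74 ± 0.28, adjusted p = 7.08e-05). COL4A2, its partner chain, rose to 8.82 ± 0.444 CPM under trastuzumab, against 4.4 ± 0.385 CPM in parental cells (adjusted p = 1.22e-05). A different collagen IV chain, COL4A5, fell to 0.723 ± 0.102 CPM under trastuzumab, against 5.43 ± 1.1 CPM in parental cells (log2 fold change -2.91 ± 0.23, adjusted p = 2.81e-08). Basement membrane collagen genes thus moved both ways. The fibrillar chain COL1A1 fell to 4.6 ± 0.657 CPM under trastuzumab, against 8.38 ± 1.74 CPM in parental cells (adjusted p = 0.000411). COL5A1, also fibrillar, fell to 5.41 ± 0.369 CPM under trastuzumab, against 10.1 ± 1.18 CPM in parental cells (adjusted p = 2.78e-05). COL6A1, of the microfibrillar collagen VI, rose to 2.81 ± 1.07 CPM under trastuzumab, against 1.34 ± 0.224 CPM in parental cells (adjusted p = 0.00484). That call was lost without trastuzumab replicate 3 (adjusted p = 0.0609), with trastuzumab replicates 2 and 3 left out together (0.437) and in the corrected fit (0.0599). COL1A2 had 1.05 ± 0.824 CPM under trastuzumab and 1.6 ± 1.46 CPM in parental cells, and COL3A1 had 1.82 ± 0.389 CPM under trastuzumab and 2.13 ± 1.23 CPM in parental cells, neither past the test (adjusted p = 0.706 and 0.707). COL1A1, COL1A2 and COL3A1 are also fibroblast markers. They are part of the fibroblast sums of 6.24 to 11.2 CPM in trastuzumab and 9.42 to 19.5 CPM in parental libraries. Those sums are therefore not a separate measure of fibroblast content. Of the other fibroblast markers, DCN and LUM had lower means under trastuzumab and PDGFRA and PDGFRB higher ones, all means below 1 CPM.

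Wnt ligands and partner receptors of PTK7 also moved both ways. WNT5A, a ligand of planar polarity signalling, fell to 27.2 ± 1.49 CPM under trastuzumab, against 41.9 ± 2.29 CPM in parental cells (log2 fold change -0.63 ± 0.074, adjusted p = 2.68e-06), and stood at -0.30 in the corrected fit (0.00245). WNT4, a mammary Wnt, rose to 21.3 ± 0.896 CPM under trastuzumab, against 16.8 ± 0.396 CPM in parental cells (adjusted p = 0.00246), but stood at 0.019 in the corrected fit (adjusted p = 0.882) and lost its call with trastuzumab replicates 2 and 3 left out together (0.109). LRP6, a Wnt coreceptor, fell to 25.5 ± 3.5 CPM under trastuzumab, against 43.6 ± 4.28 CPM in parental cells (log2 fold change -0.77 ± 0.10, adjusted p = 1.62e-05), and stood at -0.31 in the corrected fit. FZD7, a Frizzled receptor, rose to 3.98 ± 0.534 CPM under trastuzumab, against 2.55 ± 0.643 CPM in parental cells (adjusted p = 0.0201). Its call was lost without trastuzumab replicate 2 (adjusted p = 0.10) or parental replicate 3 (0.0911), with trastuzumab replicates 2 and 3 left out together (0.355) and in the corrected fit (0.105). RYK, a Wnt receptor that stands in both the coreceptor and the other-receptor list, had 57.6 ± 1.94 CPM under trastuzumab and 52.9 ± 3.23 CPM in parental cells (adjusted p = 0.115), and was called higher at 0.61 in the corrected fit (1.00e-07) and without parental replicate 1 (0.0421).

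Of 27 listed coreceptors 20 were tested; 6 were called higher and 5 lower, with a median of 0.12. The corrected fit called 4 higher and 7 lower. GPC6, a glypican, fell to 2.6 ± 0.255 CPM under trastuzumab, against 22 ± 2.1 CPM in parental cells (log2 fold change -3.08 ± 0.12, adjusted p = 2.01e-11). NRP1, a partner of MET and other receptors, fell to 8.04 ± 0.982 CPM under trastuzumab, against 30.4 ± 2.1 CPM in parental cells (log2 fold change -1.92 ± 0.10, adjusted p = 4.59e-10). Of the B plexins, which pair with MET and MST1R, PLXNB2 rose to 1444 ± 60.5 CPM under trastuzumab, against 981 ± 54.6 CPM in parental cells (log2 fold change 0.56 ± 0.047, adjusted p = 6.50e-08). Its change was 0.28 in the corrected fit (adjusted p = 1.06e-05) and 0.16 with GC content alone removed (0.00104). PLXNB1 rose to 156 ± 1.49 CPM under trastuzumab, against 129.7 ± 9.55 CPM in parental cells (adjusted p = 0.000443), but lost its call in the corrected fit (0.056, adjusted p = 0.361) and stood at -0.11 with GC content alone removed. PLXNB3 had 26.9 ± 0.758 CPM under trastuzumab and 23.4 ± 2.83 CPM in parental cells (adjusted p = 0.0751). It passed as higher without parental replicate 2 (0.025), with upper quartile factors (0.0266) and with a minimum of 1 CPM in 3 libraries (0.0472). With GC content alone removed it was called lower (-0.20, adjusted p = 0.0479).

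Of the named coreceptors that carry heparan sulphate, which holds FGFs at the cell surface, the first fit called SDC4 higher and SDC3 and GPC6 lower. The corrected fit called SDC4 higher and SDC1, SDC3, GPC1 and GPC6 lower, with GPC6 at -2.72 (adjusted p = 6.68e-11). These genes are not a list of their own. SDC4 rose to 202 ± 10.8 CPM under trastuzumab, against 168 ± 3.86 CPM in parental cells (adjusted p = 0.000261), a call lost with trastuzumab replicates 2 and 3 left out together (0.0597). SDC3 fell to 10.9 ± 0.898 CPM under trastuzumab, against 13.9 ± 0.588 CPM in parental cells (adjusted p = 0.0102), a call lost without trastuzumab replicate 2 (0.0528) and without replicates 2 and 3 together (0.128). It stood at -0.63 in the corrected fit. SDC1 had 518 ± 21.4 CPM under trastuzumab and 487 ± 17.3 CPM in parental cells (adjusted p = 0.116), and was called lower in the corrected fit (-0.30, adjusted p = 3.53e-06). GPC1 had 17.5 ± 0.742 CPM under trastuzumab and 17.9 ± 0.523 CPM in parental cells (adjusted p = 0.811), and was likewise called lower in the corrected fit (-0.34, adjusted p = 0.00348). SDC1 was called higher with upper quartile factors (0.14, adjusted p = 0.0137) and with DESeq2 (0.11, adjusted p = 0.0403). The direction of SDC1 thus depended on the processing.

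The remaining coreceptors were FGFRL1, SORL1 and CD44. FGFRL1, an FGF receptor without a kinase domain, rose to 3.34 ± 0.484 CPM under trastuzumab, against 2.15 ± 0.616 CPM in parental cells (adjusted p = 0.0343). Its log2 fold change was 0.63 ± 0.24, and 0.25 in the corrected fit, where the call was lost (adjusted p = 0.47). The call was also lost without trastuzumab replicate 1 (0.0872) or 3 (0.13), without parental replicate 1 (0.0868) or 3 (0.142), and without trastuzumab replicates 2 and 3 together (0.148), where the change was 0.69. Over the fits with 1 library left out it lay between 0.45 and 0.86. SORL1, a sorting receptor, rose to 355 ± 16.9 CPM under trastuzumab, against 327 ± 12.4 CPM in parental cells (log2 fold change 0.12 ± 0.047, adjusted p = 0.0478), with libraries that overlapped. It was called higher at 0.39 in the corrected fit (adjusted p = 3.52e-07) and at 0.16 with GC content alone removed (0.00399). In the first fit its call was lost without trastuzumab replicate 1 (0.137) or 3 (0.238), without parental replicate 1 (0.101) or 3 (0.124), and without trastuzumab replicates 2 and 3 together (0.20). CD44, whose variant forms assist MET, had 2.91 ± 1.56 CPM under trastuzumab and 2.99 ± 1.95 CPM in parental cells (adjusted p = 0.967).

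Proteases that activate the ligands of MET and MST1R or shed receptors, with their inhibitors, counted 10 higher and 3 lower among 17 tested (median 0.42). The corrected fit called 8 higher and 3 lower (median 0.17). ST14 was called higher in the first fit (0.42, adjusted p = 4.89e-07) but not in the corrected fit (0.039, adjusted p = 0.437). SPINT1 turned from 0.27, called higher (adjusted p = 7.10e-05), to -0.12, called lower (adjusted p = 0.0127). ADAM10, TIMP2 and FURIN were called lower in the first fit. PLAU, the urokinase, rose to 22.7 ± 0.50 CPM under trastuzumab, against 5.28 ± 0.912 CPM in parental cells (log2 fold change 2.10 ± 0.12, adjusted p = 1.07e-09). TMPRSS2, a membrane serine protease, rose to 104 ± 5.47 CPM under trastuzumab, against 51.5 ± 1.32 CPM in parental cells (log2 fold change 1.01 ± 0.054, adjusted p = 4.70e-10). The metalloprotease inhibitor TIMP1 rose to 5.12 ± 0.555 CPM under trastuzumab, against 1.25 ± 0.307 CPM in parental cells (log2 fold change 2.03 ± 0.22, adjusted p = 8.68e-07). Both proteases and inhibitors were therefore among the risers of the first fit. TIMP3, a related inhibitor, rose to 11.2 ± 1.18 CPM under trastuzumab, against 4.5 ± 0.281 CPM in parental cells (log2 fold change 1.32 ± 0.13, adjusted p = 4.52e-07).

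Adaptors and relays that couple these receptors to RAS and PI3K counted 10 higher and 15 lower among 37 tested (median 0.092). The corrected fit called 7 higher and 13 lower (median -0.012). GAB1, the docking protein of MET, fell to 12.4 ± 2.85 CPM under trastuzumab, against 26 ± 1.8 CPM in parental cells (log2 fold change -1.07 ± 0.14, adjusted p = 6.02e-05). FRS2, the docking protein of the FGF receptors, fell to 10.3 ± 1.64 CPM under trastuzumab, against 21.1 ± 1.65 CPM in parental cells (log2 fold change -1.04 ± 0.12, adjusted p = 1.41e-06). GAB1 and FRS2 thus fell, but their relatives GAB2 and FRS3 were not called (adjusted p = 0.26 and 0.332). GAB2 had 15.9 CPM under trastuzumab and 14.3 CPM in parental cells, and FRS3 had 2.34 CPM under trastuzumab and 1.88 CPM in parental cells. SOS1, an exchange factor that activates RAS, fell to 40.6 ± 4.06 CPM under trastuzumab, against 83.5 ± 7.55 CPM in parental cells (log2 fold change -1.04 ± 0.081, adjusted p = 9.32e-08). In the corrected fit GAB1 stood at -0.55, FRS2 at -0.53 and SOS1 at -0.44, still called lower (adjusted p = 0.00256, 0.000486 and 1.11e-05). DOK1, a docking protein that dampens RAS signalling, rose to 4.25 ± 0.0938 CPM under trastuzumab, against 2.31 ± 0.354 CPM in parental cells (adjusted p = 0.000907), a call lost in the corrected fit (0.0681).

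Brakes on receptor signalling counted 8 higher and 10 lower among 30 tested (median -0.022). The corrected fit called 9 higher and 10 lower (median 0.0065). The genes named here have the largest changes and do not stand for the list. DUSP6, an ERK phosphatase that ERK signalling induces, rose to 2.2 ± 0.449 CPM under trastuzumab, against 1.07 ± 0.226 CPM in parental cells (log2 fold change 1.05 ± 0.28, adjusted p = 0.00449). DUSP5, a nuclear ERK phosphatase, rose to 21.5 ± 0.224 CPM under trastuzumab, against 11.6 ± 1.23 CPM in parental cells (log2 fold change 0.90 ± 0.097, adjusted p = 9.66e-07). SPRY4, a Sprouty inhibitor of RAS-ERK signalling, rose to 44.3 ± 0.321 CPM under trastuzumab, against 23.3 ± 3.23 CPM in parental cells (log2 fold change 0.92 ± 0.089, adjusted p = 2.71e-07). In contrast to these 3 genes, PTPRK, a receptor phosphatase, fell to 95.2 ± 8.17 CPM under trastuzumab, against 169 ± 6.84 CPM in parental cells (log2 fold change -0.83 ± 0.060, adjusted p = 1.40e-08). In the corrected fit DUSP5 stood at 0.58 and PTPRK at -0.50, both still called (adjusted p = 8.00e-05 and 4.57e-06).

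**Figure D4:**
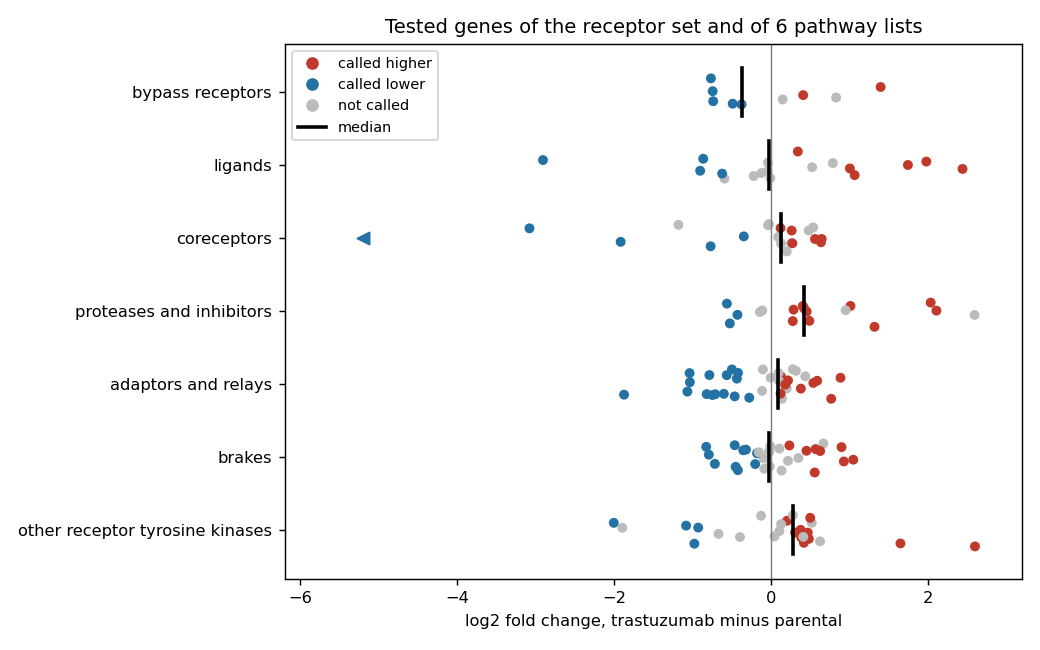
Log2 fold change, trastuzumab minus parental (horizontal axis), of each tested gene of the bypass receptors and of 6 pathway lists; vertical scatter within a row has no meaning. Red genes were called higher, blue lower and grey neither, black bars are medians, and the blue triangle is the bound for KL, which had 0 counts under trastuzumab. The values are from the first fit. The median was -0.38 for the bypass receptors (-0.19 in the corrected fit) and lay between -0.027 and 0.42 for the lists.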

How the data were processed

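Per the labels, the libraries were made with a strand-keeping kit. For each library the authors deposited whole-number read counts for 60612 genes. The authors also deposited FPKM values for 33686 of these. STAR 2.4.2a and hg38 were used, per the submitters' processing notes. Not given in the sources used here are the counting program, its strand setting and its annotation. Reads of overlapping genes on opposite strands may therefore be mixed. Symbols came from a gene name table (60401 identifiers matched). Positions, exonic length and GC content came from GENCODE 29 (58394 matched), and promoters from RefSeq.

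The edgeR 4.0.16 quasi-likelihood F test (R 4.3.3, TMM factors, filterByExpr, robust, trastuzumab minus parental, no covariate) was run on the counts, and p-values were adjusted by Benjamini-Hochberg over the 17854 genes tested, with a threshold of 0.05. No sample was dropped or imputed. The corrected fit removes from each library spline trends with 5 degrees of freedom on GC content and exonic length. The fits were first run on simulated data with less spread between libraries than these data. The simulation held no trend on GC content or length, so it does not show how well such trends are removed. Within groups log2(CPM + 1) correlated at 0.9946 to 0.9956, and no pair of libraries agreed within sampling noise.

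Alternatives were other scalings and filters, DESeq2 1.42.0, limma-voom and limma on log2(FPKM + 1) or log2(FPKM + 0.1) (limma 3.58.1), a threshold of 0.01, a replicate block and left-out libraries. Leaving out trastuzumab replicates 2 and 3 together was added after seeing the data. The members, lists and markers were chosen with earlier results of these data known. Genes named are all members, ERBB2, EGFR, TYRO3, MERTK, DDR2, up to 4 called genes a list with the largest change among those reaching 1 CPM, and every ligand or coreceptor reaching 1 CPM. HGF and the GFRA genes, named for their absence, were chosen after their values were seen. So were ST14, SPINT1, ADAM10, TIMP2, FURIN, GAB2 and FRS3, which stand outside the checks of other genes counted below.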

Additional observations from a re-analysis of the deposited data

How the results depend on the processing

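The direction of change and its side of the threshold held in 167 of 191 checks of the 9 tested members and in 1026 of 1122 checks of 53 other genes. Upper quartile factors ended the call of FGFR4 (adjusted p = 0.0729) and gave one to MST1R (0.0319). Among members, 20 checks in 5 genes lost a call, 1 gained one and 3 in 1 gene turned direction. On deposited FPKM with a minimum of 1 FPKM, limma called 3 members lower with a pseudocount of 1 and 3 with 0.1, since AXL, FGFR1 and FGFR3 fell below the minimum. It called 2 and 2 ligands higher, 1 and 1 lower, and 3 and 3 coreceptors higher. With no minimum it called 2 members lower, and 1 coreceptor, 5 adaptors and 5 brakes higher. At an adjusted p below 0.01, 2 members were lower and 3 coreceptors higher. With GC content alone removed, 1 member, 5 adaptors and 6 other receptors were higher and 8 coreceptors lower. Over all genes that fit called 3042 higher and 3718 lower of 17649 tested. Counts over all genes are not given here for the FPKM fits and the 0.01 threshold. The member and list counts in those settings are therefore not set against genes at large.

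Without trastuzumab replicates 2 and 3 together, 3 members were lower, and 2 coreceptors, 6 adaptors and 5 brakes higher and 5 brakes lower. Over all genes 2736 were higher. The lone trastuzumab library was there assumed to vary like the parental ones. Leaving out 1 library at a time gave 3 to 5 members lower, 3 to 7 coreceptors higher, and over all genes 3800 to 4295 higher and 4057 to 4394 lower.

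Same-numbered libraries of the groups correlated in their deviations at 0.0393, 0.0366 and 0.0327. Each was the highest for its number but under the limit of 0.1 for a pairing. With the replicate number as a block, 2 members were higher and 5 lower, and 4219 and 4434 of all genes. SORL1 lost its call (adjusted p = 0.0748). With the block and the removal of GC content and length together, 2 members were higher and 4 lower (MST1R lost its call, adjusted p = 0.0605), and 6 adaptors higher.

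Direction turned as follows, and the cause was not tested. With GC content and length removed, with GC content alone and with the block added, MST1R stood at -0.19, -0.22 and -0.19, PLXNB3 at -0.093, -0.20 and -0.089, SDC1 at -0.30, -0.28 and -0.30, and CD44 at 0.23, 0.076 and 0.27. PLXNB1 stood at -0.11 with GC content alone removed. Upper quartile factors put NRTN at 0.042, CD44 at 0.013 and GPC1 at 0.023. DESeq2 put NRTN at 0.0082, limma-voom put CD44 at 0.039, and the block alone put it at 0.015. Without trastuzumab replicates 2 and 3, MST1 stood at 0.11 and NRTN at 0.067. With 1 library left out, MST1 ran from -0.38 to 0.20, NRTN ran from -0.21 to 0.20, COL1A2 ran from -1.27 to 0.47, COL3A1 ran from -0.60 to 0.25, CD44 ran from -0.57 to 0.64, GPC1 ran from -0.054 to 0.0043. None of these 6 genes passed the test in the fit of all libraries. The order of member levels held in all 45 pairs with CPM per length in place of FPKM. Low counts limit AXL and RET most, and FGFR1 and FGFR3 next.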

Other observations

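Genes below the 1 CPM limit for naming, chosen after their values were seen, also differed. KL, the coreceptor of FGF23, had 0, 0 and 0 counts in trastuzumab replicates 1 to 3, against 49, 44 and 12 counts in parental replicates 1 to 3. KL was called lower under trastuzumab (edgeR adjusted p = 0.000165). Its summed parental level of 0.476 CPM was 36.7-fold above a floor of 3 counts over the trastuzumab group (0.013 CPM). That fold is not a strict bound, since the parental level had a Poisson 95% interval of 0.39 to 0.577 CPM, which covers counting error only. LTK, a receptor tyrosine kinase related to ALK, rose to 0.639 ± 0.148 CPM under trastuzumab, against 0.104 ± 0.0155 CPM in parental cells (log2 fold change 2.60 ± 0.59, adjusted p = 0.00144). GRB14, an adaptor that inhibits the insulin receptor, fell to 0.266 ± 0.154 CPM under trastuzumab, against 0.984 ± 0.328 CPM in parental cells (log2 fold change -1.87 ± 0.50, adjusted p = 0.0050).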
